A study of Homo sapiens with 16 samples.

Results

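The genes described here are 31 genes of sterol and fatty acid synthesis, chosen by a list of their symbols that sets no threshold on a measured value, although earlier results of these data were known when the list was made. All 31 were found among the 26485 gene rows of the count table, and all 31 passed the filter on low counts in both cell lines, where 15136 genes were tested in PC3 and 13872 in HeyA8 cells. PC3 is a prostate cancer line and HeyA8 an ovarian cancer line. Each line was mock treated or transfected with siNT1, siGGGGGC or siCAG, and RNA was sequenced at 24 h and at 48 h, with 1 library for each combination and 16 libraries in all. siNT1 is a non-targeting siRNA. siGGGGGC carries the G-rich seed GGGGGC in its guide strand, and siCAG is given by its name alone in the sample descriptions. The names siNT1 and siGGGGGC are those of the treatment field, and the titles of these samples read siNT_3AB and siMxy_3AB. The descriptions give a dose of 1 nM for the siRNAs, and the study's methods give another dose. Each group thus holds 2 libraries, of which one was taken at 24 h and the other at 48 h, so that its spread includes the time effect unless time is a term of the fit. Nothing in the sources says that they came from independent experiments, so the p-values measure only the spread between these libraries.

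Between 27937092 and 29971612 reads per library were counted on genes in PC3, and between 29128446 and 31790209 in HeyA8. Of the genes that mark the origin of the lines, TMPRSS2 had 22.4 and 29.8 CPM (counts scaled to library size) in the mock PC3 libraries and 0 in all 8 HeyA8 libraries, whereas PAX8 had 145 and 204 CPM in the mock HeyA8 libraries and 4.02 and 2.79 CPM in those of PC3. Of 5 epithelial genes, 3 were called higher in mock PC3 than in mock HeyA8 (CDH1, EPCAM and KRT19) and 2 lower (KRT8 and KRT18), by the test described below. KRT19 had 285 and 439 CPM in PC3 against 0.434 and 0.471 in HeyA8, while KRT8 had 223 and 206 CPM against 664 and 853. Of 4 mesenchymal genes 3 were called lower in PC3, among them VIM (959 and 940 CPM against 6894 and 8077). Of 4 genes of fat and liver cells 1 passed the filter on low counts. This was PLIN1, which coats lipid droplets, with 1.35 and 1.79 CPM in mock PC3 and 0 in both mock HeyA8 libraries, and it was called higher in PC3. ADIPOQ, another of the 4, was at 0 in every library. Both siCAG libraries of HeyA8 stood apart. Their log CPM correlated with the mock library of 24 h with Pearson's r of 0.956 at 24 h and 0.943 at 48 h, across genes, where the other HeyA8 libraries lay between 0.972 and 0.990. Their 100 most abundant genes took 26.1% and 23.2% of the reads, against 19.9% in mock at 24 h. The library of 24 h also differed in that its log2 ratio to the mock library followed the GC content of the transcripts across 11800 genes, with a Spearman correlation of 0.67, whereas this correlation was 0.014 at 48 h. Over the siNT1 library of the same time, the correlation for siCAG in HeyA8 was 0.56 at 24 h and -0.02 at 48 h. Smaller correlations with GC content were found at 24 h for siNT1 over mock in HeyA8 (0.44) and for siGGGGGC over siNT1 in PC3 (0.37) and HeyA8 (-0.38). At 48 h in PC3 they were 0.33 for siCAG over mock, 0.26 for siNT1 over mock, 0.22 for siCAG over siNT1 and -0.02 for siGGGGGC over siNT1. The changes of members called after siCAG in HeyA8 are given with and without the library of 24 h.

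Cells make cholesterol from acetyl-CoA through mevalonate, squalene and lanosterol, and make fatty acids from the same precursor through malonyl-CoA. Most genes of both routes are switched on by the transcription factors SREBP1 and SREBP2, encoded by SREBF1 and SREBF2. When membrane sterol is high, the INSIG proteins hold these factors in the endoplasmic reticulum, and when it is low, the factors are cut, enter the nucleus and raise their targets, INSIG1 among them. The 31 genes hold these 3 regulators and 19 genes that act in sterol synthesis and transport, and another 9 act in fatty acid and glycerolipid synthesis.

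The first question was how strongly each line expressed the genes without siRNA. In RPKM, which scales reads to transcript length and library size, FDPS, which makes farnesyl diphosphate, was the most abundant member in mock PC3 cells at 168 RPKM at 24 h and 209 at 48 h. FADS2, a fatty acid desaturase, followed at 150 and 201 RPKM, and SCD, which desaturates stearoyl-CoA, at 96.6 and 133 RPKM. These ranges overlap for FDPS and FADS2. In mock HeyA8 cells SCD ranked highest at 171 and 332 RPKM, then FDPS at 179 and 263 and FDFT1, the squalene synthase, at 105 and 203, and the ranges of all 3 overlap. FASN, the fatty acid synthase, had similar levels in both lines (61.5 and 77.0 RPKM in PC3, 57.2 and 92.3 in HeyA8). The lowest members were ELOVL6 in PC3 (2.46 and 2.06 RPKM) and TM7SF2 in HeyA8 (0.986 and 1.68 RPKM).

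**Figure D1:**
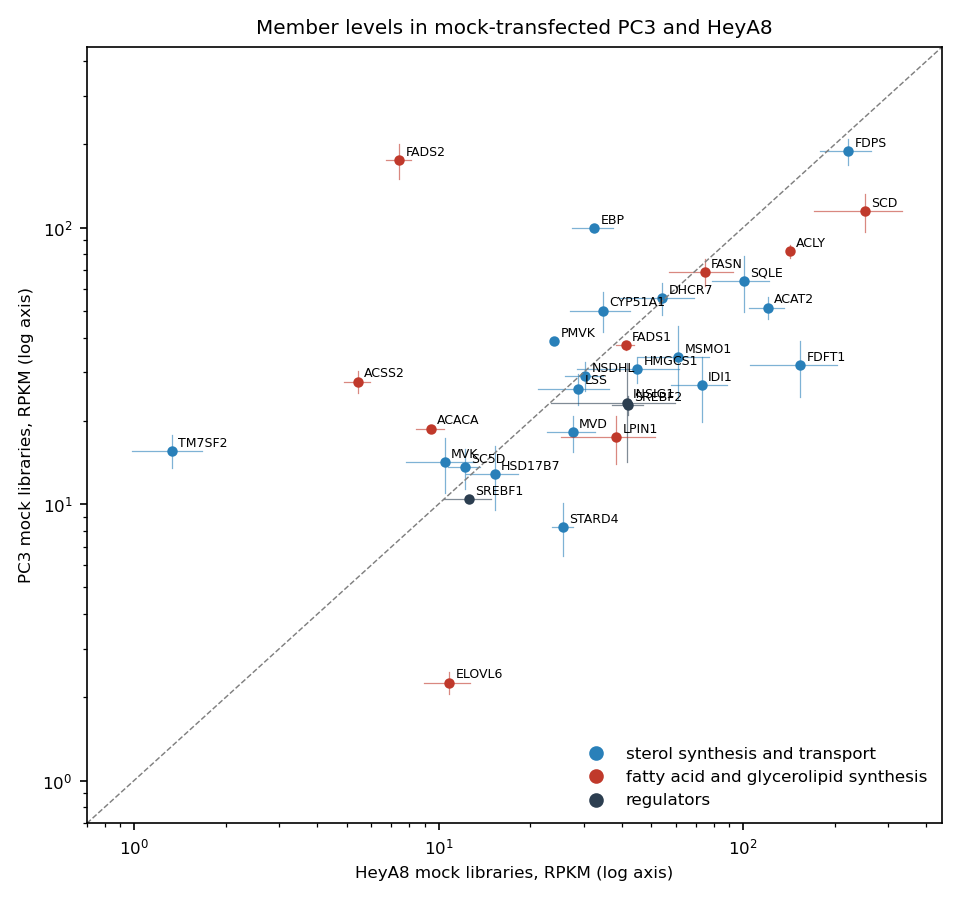
Levels of the 31 members in mock-transfected HeyA8 (horizontal) and PC3 (vertical), in RPKM on log axes. Points are means of the 24 h and 48 h libraries, lines span these 2 libraries, and the dashed line marks equal levels. FADS2, TM7SF2 and ACSS2 lie far above the dashed line, and FDFT1 and ELOVL6 lie below it.

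Between the lines, the mock libraries of PC3 and HeyA8 were compared in a fit of all 16 libraries with edgeR's quasi-likelihood test, and genes were called where the p adjusted by the Benjamini-Hochberg method was under 0.05. Of the 31 members, 8 were called lower and 6 higher in PC3 (25.8% and 19.4% of members), against 19.9% lower and 25.6% higher among all 15887 genes tested. FADS2 had 464 and 622 CPM in the mock PC3 libraries and 20.8 and 25.1 CPM in those of HeyA8, a log2 difference of 4.46 (SE 0.37, adjusted p = 6.28e-06 from edgeR), or 22.1-fold. TM7SF2, a sterol C14 reductase, had 21.2 and 27.9 CPM in PC3 and only 1.56 and 2.65 CPM in HeyA8 (log2 difference 3.92, SE 0.39). ACSS2, which makes acetyl-CoA from acetate, had 72.6 and 87.5 CPM in PC3 and 14.1 and 17.2 CPM in HeyA8 (2.27, SE 0.25). EBP, a sterol isomerase, had 109 and 116 CPM in PC3 and 30.9 and 42.2 CPM in HeyA8 (1.77, SE 0.35). Lower in PC3 were FDFT1 with 49.7 and 79.4 CPM against 214 and 413 CPM (log2 difference -2.09, SE 0.32), and ELOVL6, which elongates palmitate, with 16.2 and 13.5 CPM against 59 and 83.6 CPM (log2 difference -1.79, SE 0.29). For these 6 genes no mock library of one line overlapped with those of the other, and each kept its call when any 1 of the 4 mock libraries was left out. Here and below, leaving out a library leaves its group with 1, which is then assumed to vary like the other groups. The number of calls fell from 14 to 6 without the PC3 mock library of 24 h and to 8 without the HeyA8 mock library of 24 h. Calls over all genes also became fewer, from 3159 lower and 4075 higher of 15887 genes to 1696 and 2711 of 16444 in the first case and to 2092 and 2233 of 16449 in the second. Of the regulators, SREBF2 was lower in PC3 by 0.83 on the log2 scale (adjusted p = 0.0160, edgeR). This call was lost without 3 of the 4 mock libraries and kept without that of HeyA8 at 48 h. SREBF1 (-0.05, adjusted p = 0.935) and INSIG1 (-0.46, adjusted p = 0.142) did not pass the test. SREBF1 was at 0.28 without the PC3 mock library of 24 h and at -0.38 without that of HeyA8 at 24 h. INSIG1 was at -0.20 without the PC3 mock library of 24 h and at -0.62 without that of 48 h.

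A wider list of 68 genes around these routes (uptake, control of SREBP, efflux, other fatty acid enzymes, glycerolipid synthesis and fatty acid oxidation) had 61 genes tested in the 16-library fit, of which 10 were called lower and 15 higher in PC3, against 19.9% and 25.6% of all genes, so that the list did not stand out from them. DGAT2, which completes triglyceride synthesis, had 31.5 and 26.3 CPM in mock PC3 and 0.688 and 0.399 CPM in mock HeyA8 (log2 difference 5.5, SE 0.37). ACACB, the mitochondrial acetyl-CoA carboxylase, had 38.1 CPM in both mock PC3 libraries and 5.61 and 4.2 CPM in those of HeyA8 (2.66, SE 0.30). FAXDC2 was lower in PC3 (0.184 and 0.176 CPM in mock PC3, 1.16 and 0.942 in mock HeyA8). The cholesterol exporter ABCG1 was higher in PC3 (0.828 and 1.26 CPM against 0.0362 in both mock HeyA8 libraries). So was HSD17B7P2 (2.18 and 3.88 CPM against 0.0724 and 0), a pseudogene that can share reads with the member HSD17B7. These genes were also called, but each was near 0 in the lower line, and FAXDC2 and ABCG1 were low in both lines.

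The next question was whether the members changed between 24 h and 48 h. In the study's protocol the medium was changed at 24 h, and cell density also rises with time, so that time since transfection, medium and density cannot be told apart. Summed over the 31 members, the share of all counted reads in HeyA8 was 0.430% in mock at 24 h and 0.670% at 48 h, and 0.435% and 0.766% after siNT1. In PC3 the same shares were 0.447% and 0.598% in mock and 0.375% and 0.488% after siNT1. The PC3 shares differed less between the times after siGGGGGC (0.390% and 0.403%) and siCAG (0.348% and 0.326%). In HeyA8 they were 0.401% and 0.624% after siGGGGGC and 0.347% and 0.422% after siCAG. These are shares of the counted reads, so they measure neither the number of cells nor the total RNA per cell. Within a single transfection, 30 of 31 members were higher at 48 h than at 24 h in HeyA8 mock cells (median log2 ratio 0.58). This number was 29 with siNT1 (median 0.69), 24 with siGGGGGC (0.54) and 18 with siCAG (0.13). In PC3 it was 29 in mock (0.38), 26 with siNT1 (0.39), 16 with siGGGGGC (0.01) and 13 with siCAG (-0.02). The median over all tested genes lay between -0.01 and 0.03 in each of these 8 pairs. Across genes the ratios of 48 h over 24 h correlated with GC content by -0.64 (Spearman) with siCAG in HeyA8. In PC3 this correlation was 0.41 with siCAG and -0.30 with siGGGGGC. In the remaining pairs of both lines it lay between -0.21 and 0.27. The part of GC content in the medians of the members was not tested. Each pair is 1 library against 1, so these ratios carry no error.

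**Figure D2:**
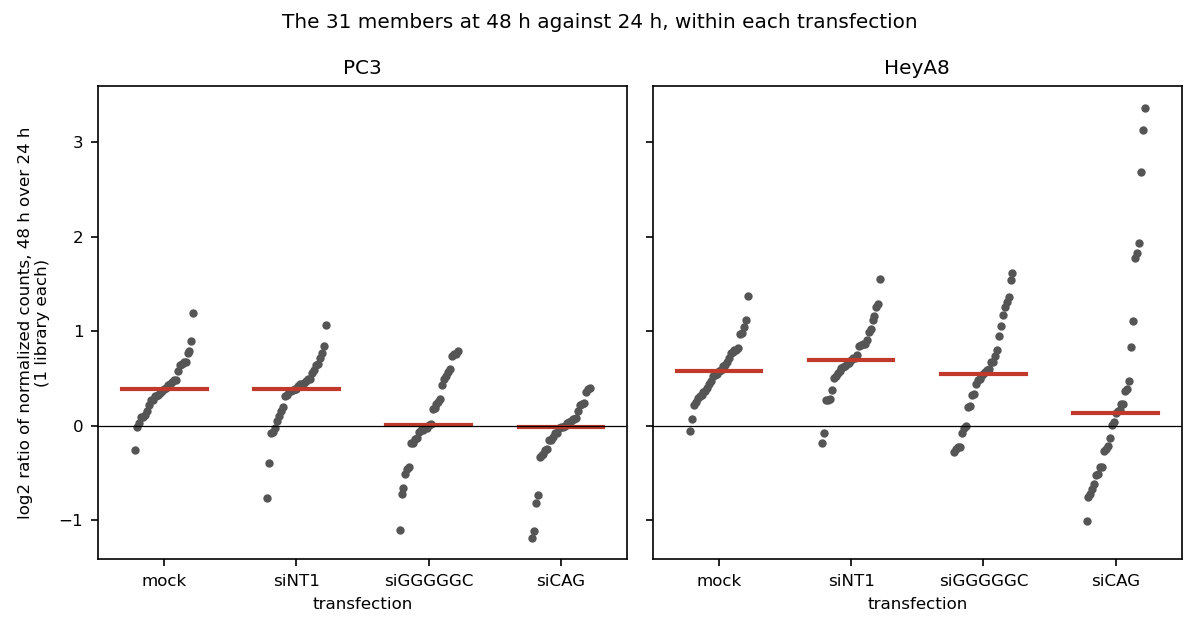
The log2 ratio of normalized counts at 48 h over 24 h for each of the 31 members (points, sorted within each column) in each transfection of PC3 (left) and HeyA8 (right), 1 library against 1. Red bars are medians, 0.38 and 0.58 in the mock columns of PC3 and HeyA8, and 0.01 and -0.02 after siGGGGGC and siCAG in PC3.

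INSIG1, which retains the SREBP precursors, stood out in both lines. In HeyA8 it had 1885 normalized counts (scaled by the TMM method within the line) at 24 h and 4876 at 48 h in mock, 2861 and 8379 after siNT1, 2977 and 9116 after siGGGGGC, and 1560 and 5529 after siCAG. The lowest 48 h library was above every 24 h library. In PC3 it had 1342 and 3075 in mock, 1734 and 3619 after siNT1, 2879 and 4992 after siGGGGGC, and 1308 and 1720 after siCAG, so that the 24 h and 48 h libraries overlapped across transfections. The log2 fold change over the 8 libraries was 1.59 (SE 0.16) in HeyA8 and 0.86 (SE 0.15) in PC3. HMGCS1, which makes HMG-CoA, had 4236 and 9223 normalized counts in HeyA8 mock cells, 4787 and 11667 after siNT1, 4308 and 9670 after siGGGGGC, and 1217 and 4641 after siCAG. Its log2 fold change was 1.37 (SE 0.19) in HeyA8. In PC3 the mock values of HMGCS1 were 4785 and 5956, those after siNT1 3919 and 4904, those after siGGGGGC 4545 and 5523, and those after siCAG 3762 and 3063, the only pair with a lower value at 48 h. MSMO1, a sterol C4 methyl oxidase, had a log2 fold change of 1.52 (SE 0.32) in HeyA8, where its normalized counts were 2785 and 4837 in mock, 3477 and 7553 after siNT1, 2821 and 8226 after siGGGGGC, and 780 and 5001 after siCAG. The wide last pair includes the 24 h library that stood apart, and without that library the value was 1.15. In PC3 the largest changes among members that were higher at 48 h in all 4 pairs were, after INSIG1, those of HSD17B7, a sterol ketoreductase, and FDFT1. HSD17B7 had 474 and 807 normalized counts in mock, 466 and 658 after siNT1, 738 and 1121 after siGGGGGC, and 404 and 474 after siCAG (log2 fold change 0.53, SE 0.13). FDFT1 had 1621 and 2590 in mock, 1142 and 1947 after siNT1, 1876 and 2696 after siGGGGGC, and 1205 and 1270 after siCAG (0.51, SE 0.14). For both genes the difference was narrow after siCAG.

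**Figure D3:**
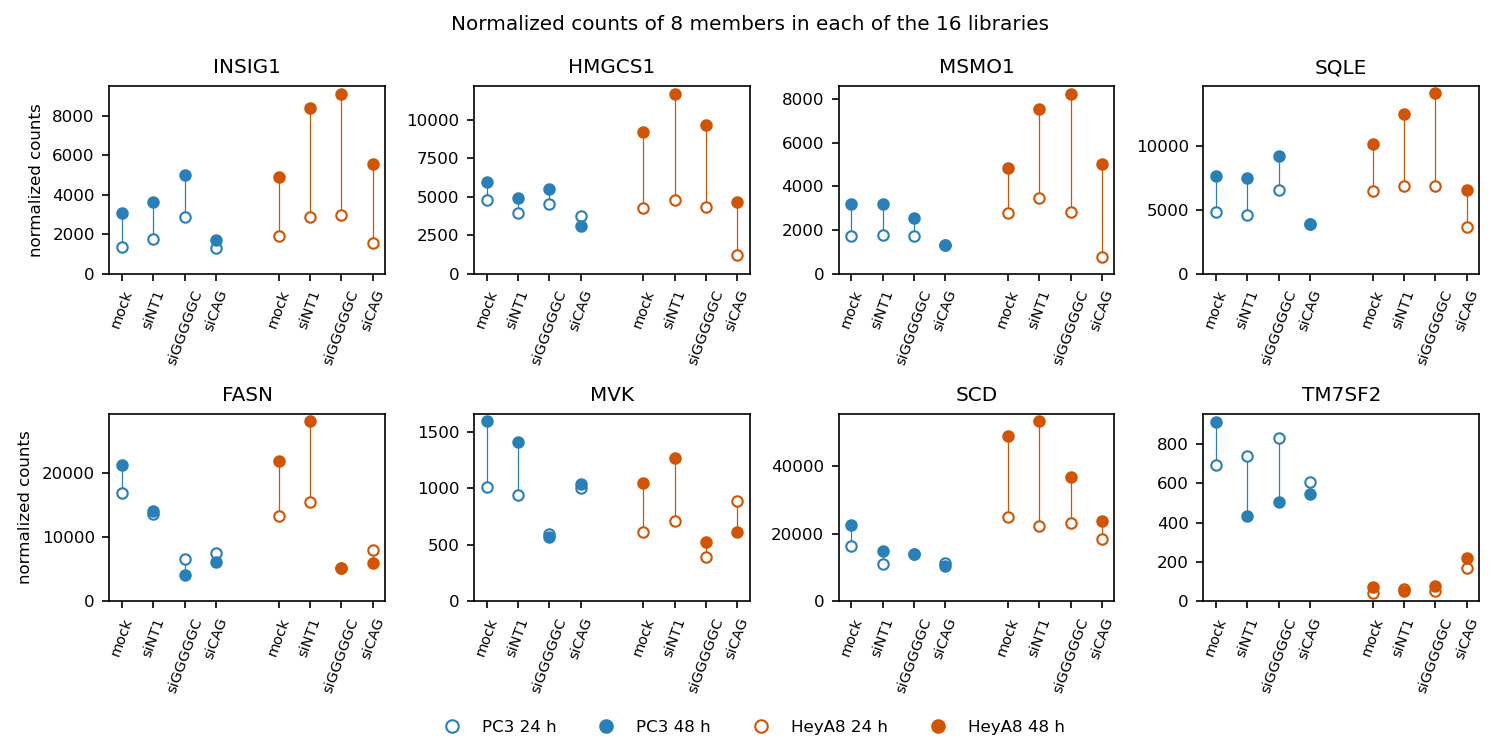
Normalized counts (TMM-scaled within each line, linear axes from 0) of 8 members in all 16 libraries, PC3 in blue and HeyA8 in orange, open points at 24 h and filled points at 48 h. INSIG1 is higher at 48 h in all 8 pairs, and FASN is lower after siGGGGGC and siCAG than after siNT1 in both lines.

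In the fit of all 8 libraries of a line, with siRNA and time as terms, 0 of 31 members passed the test for time in either line. Of all tested genes, 0.0264% were called lower and 0% higher in PC3, and 0% in both directions in HeyA8. In PC3 24 of 31 log2 fold changes of members were above 0, with a median of 0.20 against -0.01 over all genes. In HeyA8 28 of 31 were above 0, with a median of 0.39 against -0.001. The PC3 median was 0.11 without the siNT1 library of 48 h and 0.30 without the siCAG library of 24 h. At an unadjusted p under 0.05, 8 members were higher and 1 (ELOVL6) lower in PC3, and 13 were higher and 0 lower in HeyA8. Among all genes, 2032 of 15136 in PC3 and 879 of 13872 in HeyA8 had an unadjusted p under 0.05 in either direction. DESeq2 called 3 members higher in PC3 (INSIG1, HSD17B7 and LPIN1, against 0.647% of all genes) and 7 in HeyA8 (INSIG1, MSMO1, HMGCS1, IDI1, SQLE, SCD and LPIN1, against 0.202%). The adjusted p-values of INSIG1 from edgeR were 0.342 in HeyA8 and 0.275 in PC3, with a higher value at 48 h in all 4 pairs of each line. SREBF1 (0.14 in HeyA8, -0.32 in PC3) and SREBF2 (0.38 and 0.24) had smaller log2 fold changes that did not pass.

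When only the 4 mock and siNT1 libraries of HeyA8 were fitted, 26 of 31 members rose from 24 h to 48 h, against 5.2% of 13298 tested genes that rose and 6.76% that fell. The called members had adjusted p-values of at most 0.0094 (edgeR) and 30 of 31 log2 fold changes were above 0, with a median of 0.60 against -0.01 over all genes. Among the sterol genes INSIG1 rose by 1.45 on the log2 scale, HMGCS1 by 1.20, FDFT1 by 0.99, MSMO1 by 0.95, DHCR7, the last reductase of the route, by 0.90 and LSS, the lanosterol synthase, by 0.83. Among the fatty acid genes SCD rose by 1.11, LPIN1, a phosphatidate phosphatase, by 1.10, FASN by 0.77 and ELOVL6 by 0.58. Both SREBP genes were among the 26, SREBF1 with 0.60 and SREBF2 with 0.44. The 5 members that did not pass were PMVK, TM7SF2, FADS2, ACLY and ACSS2, with log2 fold changes from -0.08 to 0.29. This fit leaves 1 residual degree of freedom per gene and took the spread as equal for all genes, so it depends on the spread between mock and siNT1 being typical. Markers of the line moved in the same fit. Of 4 mesenchymal genes FN1, the matrix protein fibronectin, fell by 1.47 on the log2 scale (175312 and 49936 normalized counts in mock, 155629 and 72288 after siNT1), and the summed CPM of the 4 was 13595 and 10196 in mock and 12826 and 9805 after siNT1. The others, VIM, CDH2 and ZEB1, were not called, with log2 fold changes of 0.12, -0.03 and -0.04. Of 4 epithelial genes tested KRT18 rose by 0.49, and of 3 ovarian genes tested PAX8 rose by 0.35. Their part in the changes of the members was not tested. In the fit of all 8 libraries none of the markers passed for time in either line. In PC3 the same fit called 1 member, INSIG1 (1.13, adjusted p = 0.0368), against 0.0274% of genes higher and 0.0411% lower, and 28 of 31 members had log2 fold changes above 0, with a median of 0.38.

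Leaving out both siCAG libraries of HeyA8, a choice made after the data were seen, called 0.0295% of 13549 genes higher and 0.0148% lower. The 2 genes called lower were ID1 and TGFBI, neither of them a member. All 4 genes called higher were members: INSIG1 (1.51, adjusted p = 0.0136), HMGCS1 (1.19, adjusted p = 0.0172), FDFT1 (1.08, adjusted p = 0.0332) and DHCR7 (0.92, adjusted p = 0.0448, all from edgeR). Of the wider list, 57 genes were tested in HeyA8, and in the fit of the 4 mock and siNT1 libraries 13 rose and 3 fell, where 5.2% of all genes rose and 6.76% fell. Examples, chosen after their values were seen, were the acyl-CoA synthetase gene ACSL3 (log2 fold change 0.50) and ABCA1, a cholesterol exporter driven by LXR (322 and 534 normalized counts in mock and 270 and 684 after siNT1, log2 fold change 1.03). CPT1A, which carries fatty acids into mitochondria for oxidation, fell by 0.40. In PC3, 0 of 59 genes of the wider list were called for time in either fit.

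Whether the time effect differed between the lines was tested in the fit of all 16 libraries. No member was called (0 of 31, background 0% in both directions), and DESeq2 called 1 (HMGCS1, against 0.0441% of genes lower). An unadjusted p under 0.05 was found for 5 members, all with a smaller effect in PC3, where 854 of 15887 genes had one in either direction. HMGCS1 had the largest difference, -1.17 (SE 0.23, adjusted p = 0.667 from edgeR), followed by SC5D (-0.996, SE 0.59) and STARD4 (-0.93, SE 0.61). Without the HeyA8 siCAG library of 24 h the values of SC5D and STARD4 were -0.44 and -0.39, and that of HMGCS1 was -1.06.

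The main comparison of the study was siGGGGGC against siNT1. A short guide strand pairs through its seed with sites in 3′ UTRs, and the letters GCCCCC are the match to this seed. In GENCODE v44 transcripts, 11 of 31 members (35.5%) held GCCCCC in their 3′ UTR, taken from the coding transcript with the longest one. Among 12690 tested genes of PC3 with such a transcript the share was 32.5%. FASN had 5 matches in a 3′ UTR of 805 bases, MVK and FADS2 had 3 each, SREBF1 and ACACA 2 each, and MVD, SCD, NSDHL, SC5D, ELOVL6 and ACSS2 1 each. The 5 sites of FASN and 2 of MVK are shown because these 2 members carried the largest changes after siGGGGGC. Capitals mark GCCCCC in the transcript, read 5′ to 3′ from the hg38 genome.
FASN, chr17:82079131-82079136, minus strand: gcccgtGCCCCCgcctgccaccgg
FASN, chr17:82079015-82079020, minus strand: cccagtgccactGCCCCCcgaggctgctag
FASN, chr17:82078733-82078738, minus strand: gtcccgcactctGCCCCCatttccccgatg
FASN, chr17:82078673-82078678, minus strand: ctgctggctgcgGCCCCCtctcggccaggc
FASN, chr17:82078564-82078569, minus strand: ccacacccagcgGCCCCCcgcacagccacc
MVK, chr12:109596879-109596884, plus strand: catctgcttcagGCCCCCgccttggcctgt
MVK, chr12:109596984-109596989, plus strand: ttttcagggaccGCCCCCtgtctctcaggg

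The third FASN site has T just before and A just after GCCCCC, which makes the match to the guide 8 bases long, the first 2 FASN sites have T before it (7 bases) and the other FASN sites and the MVK sites shown have neither (6 bases). A match is a description of the letters and not a measured site of binding.

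In PC3, FASN had 13613 normalized counts at 24 h and 14124 at 48 h after siNT1, and 6646 and 4192 after siGGGGGC. It fell by 1.37 on the log2 scale (SE 0.23, 2.59-fold, adjusted p = 0.0198 from edgeR). MVK, the mevalonate kinase, had 938 and 1412 normalized counts after siNT1 and 598 and 570 after siGGGGGC, and fell by 0.97 (SE 0.22, 1.96-fold, adjusted p = 0.0385). For both genes each siGGGGGC library was below each siNT1 library and each mock library. These were the only 2 of 31 members called lower (6.45%), with 0 called higher, against 6% of all genes lower and 3.67% higher, so the share of members called was near that of all genes. DESeq2 called 4 members (FASN, MVK and FADS2 lower and HSD17B7 higher), against 11.3% of genes lower and 7.64% higher. With mock as the control 5 were called (FASN, FADS2, MVK and ACSS2 lower and INSIG1 higher), against 12.3% and 8.83% of genes. With the 4 siNT1 and siGGGGGC libraries alone 1 member was called. Calls over all genes also became fewer in that fit, as given in the last section. FADS2 had 10596 and 13690 normalized counts after siNT1 and 8231 and 6054 after siGGGGGC (log2 fold change -0.76, adjusted p = 0.0733). HSD17B7, INSIG1, FDFT1, MVD, NSDHL and DHCR7 had log2 fold changes between 0.42 and 0.72 with adjusted p-values between 0.052 and 0.135, and so did not pass. Of these, INSIG1 had 1734 and 3619 normalized counts after siNT1 and 2879 and 4992 after siGGGGGC (0.59, SE 0.21). SREBF1 had 1347 and 1325 after siNT1 and 1375 and 641 after siGGGGGC (-0.46, SE 0.28, adjusted p = 0.284), with the low value at 48 h only, and SREBF2 had a log2 fold change of -0.37 (adjusted p = 0.179). The median over the members was -0.01 against 0.00 over all genes. Without the term for time (no replicate block) MVK had an adjusted p of 0.0672, and FASN remained called. Both calls were lost without either siNT1 library (adjusted p of FASN 0.0913 without 24 h and 0.199 without 48 h, of MVK 0.128 and 0.333), and that of MVK without the siGGGGGC library of 48 h (0.103). Without the siGGGGGC library of 24 h, 6 members were called lower and 1 higher, against 13.4% and 10.1% of all genes.

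In HeyA8, FASN had 15578 and 28135 normalized counts after siNT1 and 5285 and 5256 after siGGGGGC, a log2 fold change of -2.01 (SE 0.35, 4.03-fold). It ranked 81 from the lowest of 13872 log2 fold changes, and the siGGGGGC libraries were below all mock and siNT1 libraries. MVK had 710 and 1269 normalized counts after siNT1 and 389 and 528 after siGGGGGC (-1.08, SE 0.36). SREBF1 had 1749 and 2769 after siNT1 and 1284 and 1258 after siGGGGGC (-0.81, SE 0.34, and -0.44 without the siNT1 library of 48 h), SREBF2 had -0.34 and INSIG1 0.09. None of the 31 members passed the test in the 8-library fit of HeyA8 (edgeR adjusted p = 0.168 for FASN and 0.440 for MVK), in which 0% of genes were called in either direction. FASN and MVK had an unadjusted p under 0.05, where 1352 of 13872 genes had one in either direction, and DESeq2 called FASN (against 1.9% of genes lower). With the 4 siNT1 and siGGGGGC libraries alone, FASN, MVK and SREBF1 were called lower, against 5.78% of genes lower and 3.09% higher, and without the siCAG libraries FASN (adjusted p = 0.0067) and MVK (adjusted p = 0.0240) were called lower, against 2.56% of genes. The difference between the lines passed for 0 of 31 members (background 0% in both directions, 0 members with an unadjusted p under 0.05, 0 by DESeq2). For FASN it was 0.64 (SE 0.46), and with single libraries left out it lay between 0.21 (without siNT1 of 48 h in HeyA8) and 1.00 (without siNT1 of 24 h in HeyA8). For LSS it was 0.61 (SE 0.31), and 0.38 and 0.82 without the same 2 libraries. For STARD4 it was -0.64 (SE 0.82), with -1.21 without the PC3 siGGGGGC library of 48 h and -0.25 without that of 24 h.

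**Figure D4:**
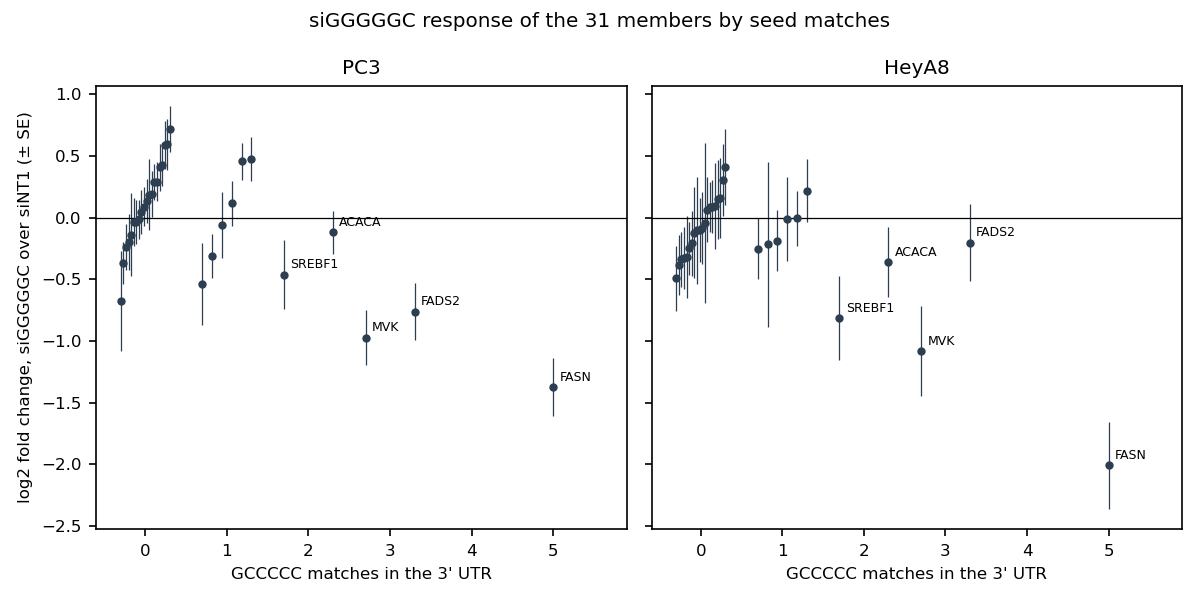
Log2 fold change after siGGGGGC against siNT1 (vertical, points with SE bars) of the 31 members by the number of GCCCCC matches in the 3′ UTR (horizontal, points spread sideways within a number) in PC3 and HeyA8. FASN with 5 matches is lowest in both lines, at -1.37 and -2.01.

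Set side by side, the 11 members with GCCCCC had a median log2 fold change of -0.32 in PC3 and -0.22 in HeyA8, and the 20 members without it 0.11 and -0.09. Over all tested genes with a 3′ UTR the medians were -0.09 with and 0.04 without GCCCCC in PC3, and -0.10 and 0.05 in HeyA8. Of the members without the letters, STARD4 had the lowest value in PC3 at -0.68. Members with 1 match lay on both sides of 0 in PC3, from MVD at 0.48 to SC5D at -0.54. The canonical transcripts of FASN, SREBF1 and MVK were rich in GC (65.3%, 63.2% and 60.01%), and the part of GC content in their values was not tested.

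Markers of the lines also moved with siGGGGGC. The keratins KRT8, KRT18 and KRT19 carried most of the summed CPM of 5 epithelial genes, which was 824 at 24 h and 459 at 48 h after siGGGGGC in PC3, against 751 at both times after siNT1, and 1147 and 603 against 1339 and 1402 in HeyA8. CDH1, another of the 5, went the other way in PC3, from 806 and 629 normalized counts after siNT1 to 1156 and 923. None of the epithelial genes passed the test. Of the markers of origin, 1 of 4 prostate genes tested and 1 of 3 ovarian genes tested were called lower in PC3. These were TMPRSS2, from 761 and 1143 normalized counts after siNT1 to 523 and 502 (log2 fold change -0.85, adjusted p = 0.0433, edgeR), and PAX8, from 151 and 174 to 83.1 and 45.5 (-1.36, adjusted p = 0.0434). In HeyA8 PAX8 had 4321 and 4985 after siNT1 and 2349 and 1823 after siGGGGGC (-1.14, adjusted p = 0.303). Their part in the changes of the members was not tested.

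Of the wider list in PC3, 3 of 59 genes fell and 5 rose after siGGGGGC, where 6% of all genes were called lower and 3.67% higher. ACSL4, which activates polyunsaturated fatty acids, had 4758 and 3094 normalized counts after siNT1 and 870 and 1038 after siGGGGGC (log2 fold change -1.98, adjusted p = 0.0206). SCARB1, a receptor for high density lipoprotein, had 4113 and 3964 after siNT1 and 1642 and 1290 after siGGGGGC (-1.47, adjusted p = 0.0077). CPT2, which acts in fatty acid import into mitochondria, had 683 and 714 after siNT1 and 1233 and 1895 after siGGGGGC (1.15, adjusted p = 0.0235). LPIN2, a relative of LPIN1, rose by 1.00 (adjusted p = 0.0264, edgeR), from 2056 and 1690 after siNT1 to 3238 and 4321 after siGGGGGC. In mock PC3 LPIN2 had 3045 and 3249, so both siNT1 libraries were below both mock libraries. In HeyA8, 0 of 57 were called.

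The third siRNA, siCAG, was compared with the same siNT1 libraries, so its results share their error with those of siGGGGGC. In HeyA8, HMGCS1 fell by 1.63 on the log2 scale (SE 0.27, 3.09-fold, adjusted p = 0.0230 from edgeR), from 4787 and 11667 normalized counts after siNT1 to 1217 and 4641. FASN fell by 1.58 (SE 0.35, adjusted p = 0.0449), from 15578 and 28135 to 8030 and 5932. IDI1, the isopentenyl diphosphate isomerase, fell by 1.42 (SE 0.33, adjusted p = 0.0492), from 4441 and 7267 to 1128 and 3854, and SQLE, the squalene epoxidase, by 0.92 (SE 0.21, adjusted p = 0.0459), from 6871 and 12523 to 3660 and 6531. TM7SF2 rose by 1.71 (SE 0.35, 3.27-fold, adjusted p = 0.0377), from 61.8 and 54.3 normalized counts to 169 and 220. The siCAG and siNT1 libraries did not overlap for HMGCS1, IDI1, SQLE, FASN or TM7SF2. In all, 4 members were called lower (12.9%) and 1 higher (3.23%), against 4.93% and 2.88% of all genes, and 27 of 31 log2 fold changes were below 0, with a median of -0.57 against -0.01 over all genes. INSIG1 (-0.73, adjusted p = 0.0828), SREBF1 (-0.21) and SREBF2 (-0.16) did not pass. Without the siCAG library of 24 h the log2 fold changes were -1.29 for HMGCS1, -2.10 for FASN, -1.01 for IDI1, -0.94 for SQLE and 1.70 for TM7SF2, with a median over the members of -0.76. Without that of 48 h they were -2.03, -1.14, -1.90, -0.92 and 1.70, with a median of -0.24. With the 4 siCAG and siNT1 libraries alone 1 member was called. Mock as the control gave fewer called members than the main fit, and DESeq2 gave more. These counts are given in the last section with those over all genes. Without the term for time (no replicate block), 2 members, FASN and TM7SF2, remained called, against 5.2% of all genes lower and 3.36% higher. All 5 calls were lost without either siNT1 library (adjusted p between 0.136 and 0.392).

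The 2 siCAG libraries of HeyA8 differed in which members were low. At 24 h 6 of 31 members were lower by at least 2-fold than in the siNT1 library, against 18.2% of all genes. The share of members was thus near that of all genes. The 6 were SC5D, STARD4, MSMO1, IDI1, HMGCS1 and CYP51A1. These were the 6 members with the lowest GC content of the transcript, from 34.4% to 41.0%, where the median of the members was 49.3%. At 48 h 11 members were lower by at least 2-fold, against 14.2% of all genes, from FASN (-2.25), EBP (-1.57) and HMGCS1 (-1.33) to MVK (-1.05) and ACACA (-1.01), with GC contents from 39.0% to 65.3% and 1 of the former 6, HMGCS1, among them. SC5D, a sterol desaturase, illustrates the difference with 252 normalized counts at 24 h and 2607 at 48 h after siCAG, against 2037 and 3153 after siNT1. STARD4, which carries sterol between membranes, had 580 and 5089 after siCAG and 2966 and 4371 after siNT1. The part of GC content in the result was not tested. Without the siCAG library of 24 h, 20 members were called, 19 lower and 1 higher, against 17.4% and 14.1% of all genes, and without that of 48 h 12 members were called, 10 lower and 2 higher, against 21.9% and 11% of all genes. In each of these fits siCAG is 1 library whose spread was taken from the other groups, so the counts describe that library.

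In PC3, 0 of 31 members passed the test after siCAG, against 1.16% of genes lower and 0.0396% higher, while 28 of 31 log2 fold changes were below 0 with a median of -0.33. This median was -0.53 without the siCAG library of 24 h and -0.14 without the siNT1 library of 48 h. At an unadjusted p under 0.05, 8 members were lower and 0 higher, where 2037 of 15136 genes had such a p in either direction. DESeq2 called 3 members lower (FASN, MSMO1 and SREBF2, against 3.03% of genes). FASN had 13613 and 14124 normalized counts after siNT1 and 7543 and 6088 after siCAG (log2 fold change -1.03, SE 0.23, adjusted p = 0.106 from edgeR). STARD4 had 993 and 944 after siNT1 and 569 and 262 after siCAG (-1.21, SE 0.41). Without the siCAG library of 24 h STARD4 was at -2.12, and without that of 48 h at -0.57. MSMO1 had 1772 and 3185 after siNT1 and 1323 and 1308 after siCAG (-0.83, SE 0.23), with -1.25 without the siCAG library of 24 h and -0.46 without that of 48 h. For these 3 genes the siCAG libraries were below both siNT1 libraries. The regulators INSIG1 (-0.73), SREBF2 (-0.65) and SREBF1 (-0.38) had adjusted p-values of 0.188, 0.162 and 0.583. With the 4 siNT1 and siCAG libraries alone, 8 members were called lower, against 11.1% of genes: STARD4, FASN, MSMO1, IDI1, INSIG1, SREBF2, SQLE and DHCR7. In single libraries, 6 of 31 members were above siNT1 at 24 h and 2 of 31 at 48 h, against 46.4% and 50.3% of all genes.

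Markers of the lines also moved with siCAG. In PC3 1 of 5 epithelial genes was called, CDH1, the cell adhesion protein E-cadherin, which fell from 806 and 629 normalized counts after siNT1 to 242 and 230 (log2 fold change -1.60, adjusted p = 0.00656, edgeR). In mock PC3 it had 288 and 276, so the siCAG libraries lay nearer to mock than to siNT1. The other marker lists had 0 genes called in PC3. In HeyA8 0 markers passed the test. FN1 had 155629 and 72288 normalized counts after siNT1 and 255981 and 327882 after siCAG (1.65, adjusted p = 0.111, edgeR). Of 3 ovarian genes tested 2 were lower at an unadjusted p under 0.05, where 4094 of 13872 genes had one in either direction. The third, PAX8, had 4321 and 4985 normalized counts after siNT1 and 4580 and 6633 after siCAG. The part of the markers in the changes of the members was not tested.

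**Figure D5:**
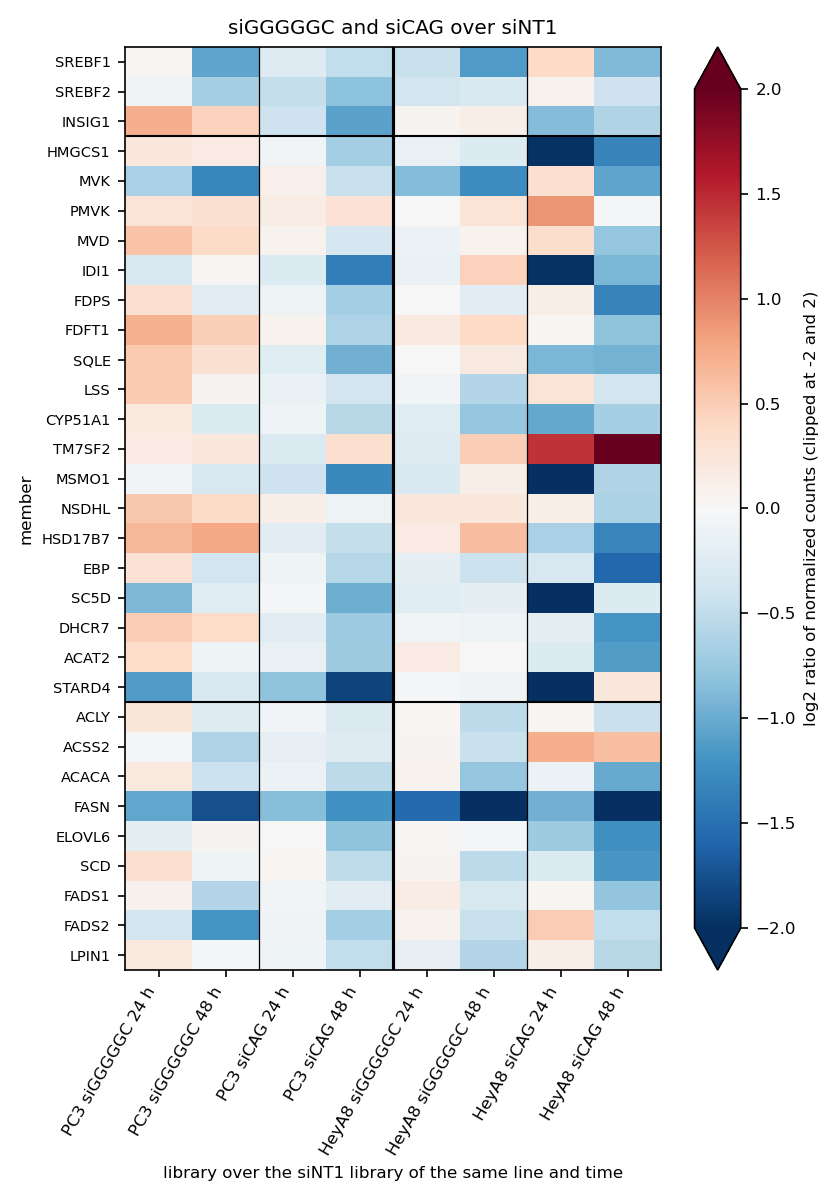
Log2 ratio of normalized counts in each siGGGGGC and siCAG library over the siNT1 library of the same line and time, 1 library against 1, for the 31 members (rows: regulators, then sterol genes, then fatty acid and glycerolipid genes). Blue is lower and red higher than siNT1, with colours clipped at -2 and 2. FASN is blue in all 8 columns, and the HeyA8 siCAG columns of 24 h and 48 h differ in their dark rows.

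The siCAG effect differed between the lines for 0 of 31 members (background 0.252% lower and 0.384% higher in PC3 than in HeyA8). Of all genes, 2327 of 15887 had an unadjusted p under 0.05 in either direction. Among the members it was reached by TM7SF2 (-1.81, SE 0.45, adjusted p = 0.112 from edgeR), HMGCS1 (1.17, SE 0.32, adjusted p = 0.140) and ACSS2 (-0.98, SE 0.30, adjusted p = 0.177), and DESeq2 called TM7SF2 and HMGCS1 (against 2.09% of genes lower and 2.13% higher). Without the HeyA8 siCAG library of 24 h these differences were -1.79 for TM7SF2, 0.85 for HMGCS1 and -0.97 for ACSS2. Without that of 48 h that of HMGCS1 was 1.51. The longest run of CTG in the coding sequence or 3′ UTR of any member was 3 triplets. A link between such runs and siCAG was not tested, since siCAG is given by its name alone.

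Among the wider list, LRP8, a receptor of the lipoprotein receptor family, fell after siCAG in both lines. It had 2643 and 2755 normalized counts after siNT1 and 1200 and 742 after siCAG in PC3 (log2 fold change -1.50, adjusted p = 0.0170), and 3540 and 3167 against 1138 and 778 in HeyA8 (-1.82, adjusted p = 0.0183, edgeR). AGPAT2, which makes phosphatidic acid, fell in PC3 (-1.53, adjusted p = 0.0137), with 1664 and 1323 after siNT1 and 626 and 417 after siCAG. In HeyA8 ELOVL5, a fatty acid elongase, fell by 1.52, from 7223 and 8731 to 2284 and 3317. HACD3, a dehydratase of the elongation cycle, fell by 1.47, from 4791 and 4868 to 1575 and 1926. GPAM, which starts glycerolipid synthesis, fell by 1.04, from 1136 and 1142 to 533 and 574, while FADS3 rose by 1.12, from 1867 and 2333 to 4378 and 4748. In these 4 genes each of the siCAG libraries lay on the same side of both siNT1 libraries. In all, 3 of 59 genes fell in PC3, where 1.16% of all genes were called lower. In HeyA8 5 of 57 fell and 1 rose, where 4.93% of all genes were called lower and 2.88% higher.

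The control siRNA itself was examined by comparing siNT1 with mock. In PC3 0 of 31 members were called, against 0.0264% of genes lower and 0.205% higher, while 26 of 31 log2 fold changes were below 0 (median -0.27 against -0.01 over all genes). The median over the members was -0.07 without the mock library of 48 h and -0.39 without the siNT1 library of 48 h. An unadjusted p under 0.05 was found for 4 members, where 1364 of 15136 genes had one, and DESeq2 called 0. SCD had 16513 and 22696 normalized counts in mock and 11140 and 14944 after siNT1 (log2 fold change -0.59, SE 0.18, adjusted p = 0.347 from edgeR), so that both siNT1 libraries were below both mock libraries. FADS2 had 15113 and 20294 in mock and 10596 and 13690 after siNT1 (-0.54, SE 0.23). FASN had 16981 and 21249 in mock and 13613 and 14124 after siNT1 (-0.47, SE 0.23). Without the mock library of 48 h these log2 fold changes were -0.25 for FADS2 and -0.13 for FASN, and the values farthest from 0 with a library left out were -0.83 (without siNT1 of 48 h) and -0.76 (without mock of 24 h). SREBF1 (-0.32), SREBF2 (0.05) and INSIG1 (0.30) did not pass. Of the markers, CDH1 rose from 288 and 276 normalized counts in mock to 806 and 629 after siNT1 (1.34, adjusted p = 0.0417, edgeR), and EPCAM had 421 and 516 in mock and 962 and 740 after siNT1 (0.84, adjusted p = 0.266). These were 2 of the 5 epithelial genes, and their part in the values of the members was not tested. In HeyA8 0 of 31 were called as well (background 0% in both directions), 1 member, INSIG1, had an unadjusted p under 0.05, where 177 of 13872 genes had one, and DESeq2 called 0. INSIG1 had 1885 and 4876 normalized counts in mock and 2861 and 8379 after siNT1 (0.69, SE 0.22), MSMO1 had 0.45 (SE 0.43), SREBF1 0.39 (SE 0.34) and SREBF2 0.35 (SE 0.22). MSMO1 was at 0.03 without the mock library of 48 h and at 1.01 without that of 24 h, and SREBF1 at 0.01 without the siNT1 library of 48 h and at 0.70 without that of 24 h. With the 4 mock and siNT1 libraries alone, 8 members (INSIG1, MSMO1, SREBF1, SREBF2, MVD, FASN, HMGCS1 and DHCR7) were called higher after siNT1 in HeyA8, against 6.79% of genes. This comparison uses the siNT1 libraries that also served as the control above.

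The members were last described by the letters of their promoters. RefSeq promoter windows (GRCh38.p14, from 250 bases before to 50 bases after the start) were matched for 27 of 31 members. The core of the sterol regulatory element, TCACNCCAC, searched on both strands, was found in 1 of 27 members (3.7%) and in 1.39% of 27305 genes. That member was SREBF2, in which the letters start 133 bases before the start of the gene. They are shown in capitals for this reason.
SREBF2, chr22:41832962-41832991, plus strand: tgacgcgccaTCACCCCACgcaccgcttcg

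The NF-Y box CCAAT, on either strand, was found in 21 of 27 members (77.8%) and in 39.7% of genes, and the E-box CACGTG in 3 of 27 (11.1%) and 8.77% of genes. A gene was counted where any of its windows held the letters, and members had up to 3 windows. These counts describe letters, and a missing match says nothing about binding elsewhere.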

How the data were processed

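RNA from PC3 and HeyA8 cells was sequenced in 16 libraries. The authors trimmed reads, aligned them to hg38 (the labels name STAR and HTSeq) and deposited unnormalized counts of reads per gene. The strand setting of the counting is not given in the sources used here. Many members overlap a gene on the opposite strand, among them ACAT2 (TCP1), FADS2 (FADS1), MVK (MMAB), SREBF1 (RAI1), ACSS2 (GGT7) and CYP51A1 (AKAP9). FDPS, IDI1, CYP51A1, HSD17B7 and SCD have pseudogenes. The counts of all these members may hold shared reads. LSS and ACACA stand on alternate contigs in the deposited table.

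Counts were analysed with edgeR 4.0.16 (R 4.3.3): filterByExpr, TMM normalization, and quasi-likelihood tests with siRNA and time point as terms over the 8 libraries of a line (3 residual degrees of freedom), or over all 16 libraries for differences between lines. P-values were adjusted by the Benjamini-Hochberg method over all genes tested. Single-library ratios add 0.5 to normalized counts and have no test. The biological coefficient of variation was 18.0% in PC3 and 28.2% in HeyA8. The deviations of same-time libraries from their group means correlated by 0.091 to 0.40 in PC3 and 0.0046 to 0.21 in HeyA8. Time thus paired the libraries weakly in both lines, except for siNT1 with siCAG in PC3 (0.40). The next highest value in PC3 was 0.15. Fits were also run on simulated data, and no statement here rests on those runs.

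RPKM used the canonical GENCODE v44 transcript length. Alternatives were RLE size factors, DESeq2 1.42.0, filters of 10 reads in total or of 1 CPM in 4 libraries, no term for time, mock as control, the compared libraries alone, each library left out, and, added after the data were seen, fits without siCAG.

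The members and gene lists were chosen with earlier results of these data known. In each comparison, per-library values were given for up to 6 called members with the largest change, or for the 3 with the largest change that moved alike at both times where under 3 were called, and for SREBF1, SREBF2 and INSIG1. Called genes of the wider list were named up to 6 per comparison. Some genes of the wider list, and 1 site of MVK, are not reported here on their own and stay in the counts.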

Additional observations from a re-analysis of the deposited data

How the results depend on the processing

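For the 41 pairs of a member and a comparison that the rule for named genes chose, 437 repeats under other settings kept the direction and the side of the threshold, 38 were called only under the alternative, 27 lost their call and 0 reversed. Genes of the wider list and members outside these pairs were not followed in this way. The number of members called moved as follows, with the calls over all genes under the same setting as lower and higher counts. DESeq2 called 4 for siGGGGGC (1703 and 1156), 3 for siCAG (458 and 114) and 3 for time (121 and 98) in PC3. In HeyA8 it called 1 (263 and 55), 10 (1513 and 1152) and 7 (33 and 28), and between lines 2 for the siCAG effect (332 and 339) and 1 for the time effect (7 and 10). Without the replicate block (no time term), 1 was called for siGGGGGC in PC3 (448 and 177) and 2 for siCAG in HeyA8 (721 and 466). With mock as the control, 5 were called for siGGGGGC (1863 and 1337) and 1 for siCAG in PC3 (266 and 125), and 3 for siCAG in HeyA8 (767 and 477). The 4 compared libraries alone gave 1 for siGGGGGC (363 and 75), 8 for siCAG (1624 and 722) and 1 for time (6 and 4) in PC3, and 3 (769 and 411), 1 (432 and 148) and 26 (899 and 692) in HeyA8, with 8 for siNT1 against mock (671 and 903). Without siCAG, HeyA8 gave 2 for siGGGGGC (347 and 130) and 4 for time (2 and 4). With each library left out, counts in PC3 ranged from 0 to 7 for siGGGGGC (0 and 0 to 2111 and 1591) and from 0 to 2 for siCAG, where the 2 calls came without the siCAG library of 24 h (114 and 11). In HeyA8 they ranged from 0 (53 and 1, or 42 and 0) to 20 for siCAG (2498 and 2022) and from 0 to 5 for time (5 and 6, without the siCAG library of 48 h). They ranged from 0 to 2 for the siCAG effect between lines (305 and 738, without the HeyA8 siCAG library of 48 h), and from 6 to 11 for the mock lines. Under the main settings the calls over all genes were 684 and 399 for siCAG in HeyA8, 176 and 6 for siCAG in PC3 and 908 and 555 for siGGGGGC in PC3. RLE size factors and the filters changed no count by over 1.5 times. The cause was not tested. A group left with 1 library was assumed to vary like the others. Low counts limit TM7SF2 in HeyA8.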
